A study of Mus musculus with 9 samples.

Results

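The genes described here are 10 components of the circadian clock and its PAR bZIP output in peritoneal macrophages of mice, out of 54059 genes measured. They are *Nr1d1*, *Nr1d2*, *Tef*, *Dbp*, *Per1*, *Per2*, *Per3*, *Cry1*, *Cry2* and *Arntl*. The set was chosen by the rise of *Nr1d2* and *Tef* with SHP099, so the difference between SHP099 and WT libraries selected it. Values of the 10 genes in that comparison are therefore a description and carry no p value. Counts from the fit over all genes are given there beside the share of all genes, and nothing is read from them. The question is how the clock genes stood in macrophages in which SHP2, a tyrosine phosphatase, was targeted by gene deletion or inhibited by a drug.

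RNA was sequenced from adherent peritoneal cells of C57BL/6 mice aged 8 weeks, taken by lavage 3 days after an injection of starch broth and cultured in DMEM with FBS. The WT group was wild-type macrophages stimulated *in vitro* for 4 h with imiquimod (IMQ), an agonist of TLR7. The M-Shp2-/- group (SHP2lyz2-/- in the labels, KO in the library names) was macrophages treated in the same way from mice with a floxed *Shp2* gene and a *Lyz2*-driven Cre, which acts in monocytes, mature macrophages and granulocytes. The SHP099 group was wild-type macrophages given SHP099, an allosteric inhibitor of SHP2, at 10 µM for 2 h before the same IMQ stimulation. Each group had 3 libraries. The IMQ step comes from the methods text and not from the labels. Its dose (10 µg/ml) and that of SHP099 come from the legend of the paper's figure on SHP099. All 9 libraries are from stimulated cells, so no unstimulated level of a clock gene was measured. Neither the labels nor the methods give the hour of lavage, stimulation or lysis. Groups and hour of handling cannot be told apart from these sources, and clock phase was not tested. The sources do not say whether the 3 libraries of a group came from separate animals, so p values measure only the spread between these samples.

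In the mammalian clock, BMAL1 (the product of *Arntl*) and CLOCK form a dimer that activates genes through E-boxes in their promoters. Among these are the *Per* and *Cry* genes, whose proteins repress the dimer, and *Nr1d1* and *Nr1d2*, which encode REV-ERBα and REV-ERBβ and repress *Arntl* through ROR elements. The PAR bZIP factors DBP and TEF are outputs of the loop that activate genes through D-boxes, where NFIL3 acts as their repressing competitor. In macrophages the clock is known to gate inflammatory responses, and the REV-ERB proteins repress part of the macrophage gene program.

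Levels are given as FPKM, in which read counts are scaled by transcript length and library depth, from libraries of 39842960 to 50981136 reads. The median depth was 44372607 reads in WT, 43182975 in M-Shp2-/- and 43837335 in SHP099 libraries. Differences are on the scale of log2(FPKM + 1), which understates changes of genes near or below an FPKM of 1. They were estimated with limma for the 11450 genes whose FPKM averaged 1 or more across the 9 libraries. Genes that combined an adjusted p no higher than 0.005 with a log2 fold change of 1 or more in either direction are termed called, and a looser rule asked only that the adjusted p be no higher than 0.05. Of the 10 clock genes, 9 passed the filter and *Dbp* did not. *Per2* passed it with a WT mean of 0.785 FPKM, through its higher values in SHP099 libraries and in M-Shp2-/- replicate 3. The median of all tested genes was itself shifted, by 0.15 in M-Shp2-/- and by 0.13 in SHP099 relative to WT. With median-of-ratios scaling these medians were -0.012 and -0.0051.

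Before the clock genes, the labels and the libraries were compared. *Ptpn11*, the gene of SHP2, had an FPKM of 45.8, 44.0 and 40.0 in WT, 18.6, 17.8 and 18.9 in M-Shp2-/- and 43.0, 42.1 and 39.6 in SHP099 libraries. Its M-Shp2-/- values lay below those of the other groups, as their labels say. The M-Shp2-/- mean was 0.425 times the WT mean, so loss of this RNA was partial, and SHP2 protein was not measured in these libraries. The log2 fold change from WT was -1.19 (adjusted p = 0.0168 by limma). Thus the targeted gene itself passed the looser rule but was not called, and lack of a call does not show lack of change. Of the 7 macrophage markers, 5 were at 45.8 FPKM or more in every library, among them *Cd68* at 1211 to 1740 FPKM and *Adgre1* at 171.9 to 348.7 FPKM. The other two were lower, with *Mertk* at 3.28 to 13.3 FPKM and *Fcgr1* at 0.701 to 5.79 FPKM. *Lyz2*, the most abundant of the 7 and the locus that drives Cre, was at 4743 to 5407 FPKM in M-Shp2-/- and at 7440.3 to 10228 FPKM in WT libraries. The sum of the 7 was 9416, 12033 and 9694 FPKM in WT, 6890.1, 6879 and 7192 in M-Shp2-/- and 11009, 12071 and 12560 in SHP099 libraries, and none of the 7 was at 0 in any library. Most of this sum is *Lyz2*, and single markers differed from it. *Csf1r*, the receptor of the growth factor CSF1, was at 58.2, 67.8 and 110.6 FPKM in WT, 87.4, 71.8 and 176 in M-Shp2-/- and 181, 211 and 206 in SHP099 libraries. Like *Nr1d2*, it was higher in each SHP099 library than in any other, and higher in M-Shp2-/- replicate 3 than in replicates 1 and 2. *Mertk* was at 6.10, 7.39 and 13.3 FPKM in WT, 3.28, 4.35 and 3.98 in M-Shp2-/- and 5.44, 4.40 and 11.7 in SHP099 libraries, with M-Shp2-/- wholly below WT.

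M-Shp2-/- replicate 3 stood apart from the other libraries of its group. It had a higher value than both of them for all 9 tested clock genes, whereas 31.4% of all tested genes were highest there. The median excess of the 9 genes over the other M-Shp2-/- libraries was 0.65 on the log2 scale. The correlation of log2 values was 0.992 between M-Shp2-/- replicates 1 and 2, and 0.967 and 0.954 between each of these and replicate 3. WT replicate 2 had the highest value of its group for 5 of the 9 genes, against 36.9% of all tested genes. Results for M-Shp2-/- are given with replicate 3 and, where stated, also without it.

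Markers of other cells also differed between libraries. The summed FPKM of 6 fibroblast markers was 585.7 in M-Shp2-/- replicate 3, against 134.5 and 51.4 in replicates 1 and 2. It was 63.8, 302.5 and 39.8 in WT and 361.1, 136.9 and 101.0 in SHP099 libraries. *Col1a1* was the most abundant of them, and *Lum* did not exceed 0.251 FPKM. The sum of 5 T cell markers, led by *Cd3g*, was 0.668, 1.99 and 5.64 FPKM in WT, 0.359, 0.306 and 3.01 in M-Shp2-/- and 5.67, 4.15 and 3.84 in SHP099 libraries. The 4 mesothelial markers, led by *Wt1*, summed to 2.50, 7.57 and 1.56 FPKM in WT, 4.27, 1.42 and 8.97 in M-Shp2-/- and 5.81, 4.59 and 2.41 in SHP099 libraries, with the highest sum again in M-Shp2-/- replicate 3. The 4 mast cell markers, led by *Tpsb2*, summed to 1.59, 3.79 and 4.82 FPKM in WT, 1.36, 0.252 and 1.43 in M-Shp2-/- and 0.320, 0.279 and 0.614 in SHP099 libraries. The 3 eosinophil markers, led by *Siglecf*, summed to 0.0116 to 0.720 FPKM, lowest in the SHP099 libraries, and *Epx* was at 0 in 7 libraries. The 5 neutrophil markers summed to 2.92 to 4.99 FPKM, nearly all of it *Camp*, while *Ly6g*, *Mpo* and *Elane* were each at 0 in 7 libraries and *Retnlg* in 8. Resident peritoneal macrophage markers (*Gata6*, *Timd4* and *Icam2*) summed to 3.54 to 6.59 FPKM. In bulk samples fewer cells of a type and less RNA per cell cannot be told apart, and the part of these markers in the results was not tested.

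Of the REV-ERB genes, which encode repressors, *Nr1d2* was the abundant one and had the highest place of the set in SHP099 against WT. *Nr1d2* (ENSMUSG00000021775, chr14:18204054-18239127, minus strand, GRCm38), the gene of REV-ERBβ, had an FPKM of 11.3, 15.2 and 15.5 in WT, 17.6, 14.8 and 33.6 in M-Shp2-/- and 38.4, 40.4 and 39.1 in SHP099 libraries. Every SHP099 library lay above every other library. The M-Shp2-/- group was split, with replicates 1 and 2 near the WT range and replicate 3 close to the SHP099 range. Group means were 14.0 ± 2.34 in WT, 22.0 ± 10.1 in M-Shp2-/- and 39.3 ± 1.01 in SHP099 (FPKM, SD, n = 3 each). The ratio of SHP099 to WT means was 2.80 and the log2 fold change 1.43, or 1.31 above the median of all genes. Among the 11450 genes it held place 17 from the highest. In M-Shp2-/- against WT, *Nr1d2* had a log2 fold change of 0.54 (SE 0.30, adjusted p = 0.504 by limma) and was not called. Over all alternatives to that fit its adjusted p ranged from 0.276 to 0.890. One of them, without replicate 3, gave an estimate of 0.20 (95% interval -0.22 to 0.63, adjusted p = 0.479 by limma). Within M-Shp2-/- the fibroblast sums (134.5, 51.4 and 585.7) had the same order as *Nr1d2*. In SHP099 libraries the sums were 361.1, 136.9 and 101.0 and in WT libraries 63.8, 302.5 and 39.8, in orders that differ from that of *Nr1d2*. The T cell sums had the same order as *Nr1d2* within WT (0.668, 1.99 and 5.64) and within M-Shp2-/- (0.359, 0.306 and 3.01). Within SHP099 (5.67, 4.15 and 3.84) they did not. The mesothelial sums had the order of *Nr1d2* within M-Shp2-/- (4.27, 1.42 and 8.97) and not within WT (2.50, 7.57 and 1.56) or SHP099 (5.81, 4.59 and 2.41). The part of fibroblasts, T cells and mesothelial cells in the level of *Nr1d2* was not tested.

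*Nr1d1*, the gene of REV-ERBα, was much less abundant. Its FPKM was 0.991, 2.85 and 0.631 in WT, 1.31, 0.736 and 2.92 in M-Shp2-/- and 2.86, 2.41 and 2.98 in SHP099 libraries, from 47 to 254 reads. Its highest WT and M-Shp2-/- values came from WT replicate 2 and M-Shp2-/- replicate 3 and reached the SHP099 range, so the groups overlapped. Within WT (63.8, 302.5 and 39.8) and within M-Shp2-/- (134.5, 51.4 and 585.7) the fibroblast sums had the same order as *Nr1d1*, and within SHP099 (361.1, 136.9 and 101.0) they did not. The same held for the mesothelial sums within WT (2.50, 7.57 and 1.56), M-Shp2-/- (4.27, 1.42 and 8.97) and SHP099 (5.81, 4.59 and 2.41). The part of fibroblasts and mesothelial cells in the level of *Nr1d1* was not tested. The log2 fold change was 0.69 in SHP099 and 0.11 in M-Shp2-/- (SE 0.42, adjusted p = 0.902 by limma, for the latter). The M-Shp2-/- estimate turned to -0.21 without M-Shp2-/- replicate 3, -8.5e-05 without WT replicate 1, -0.14 without WT replicate 3 and -0.055 with quantile normalization. Without WT replicate 2 it was 0.47, and the SHP099 estimate 1.05. Exons of *Nr1d1* share 263 bases with *Thra* on the opposite strand, and the sources used here do not state how strand was handled in counting.

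**Figure D1:**
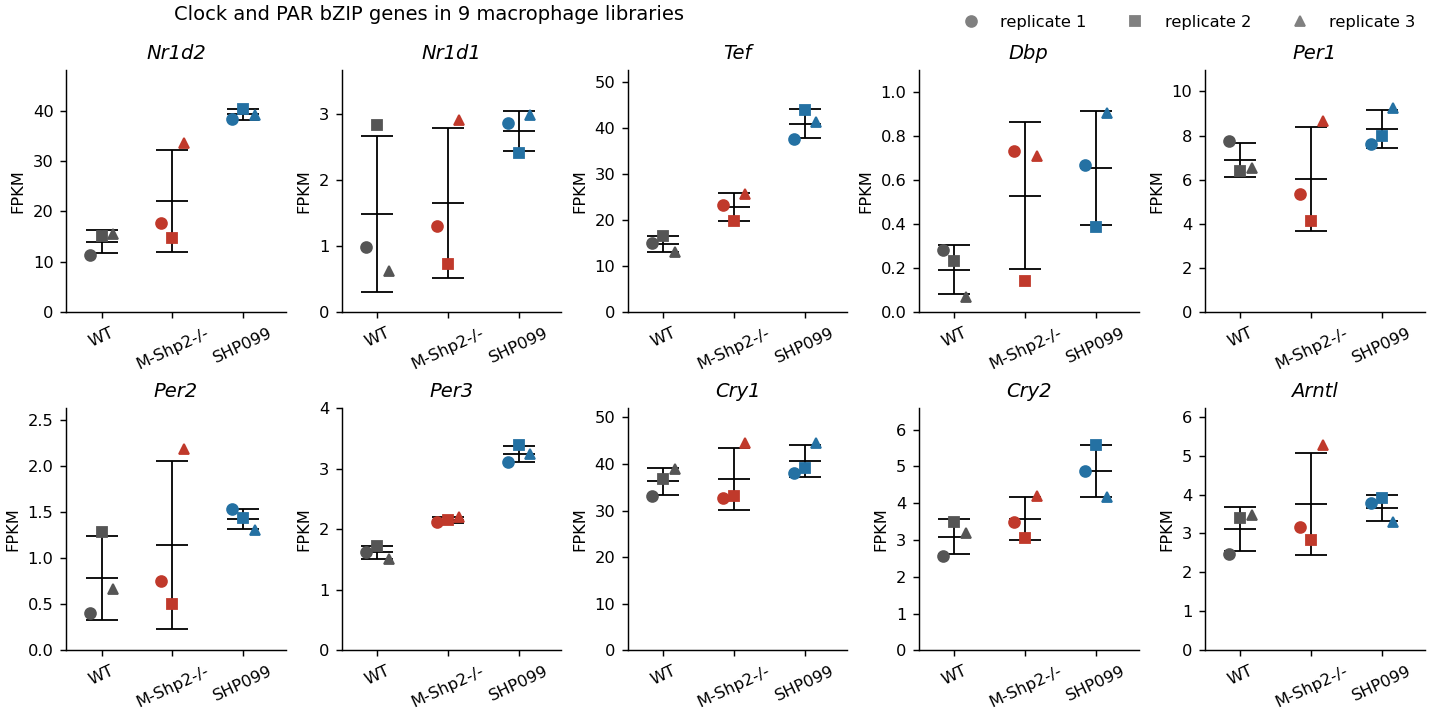
FPKM of the 10 genes in each library (points, shaped by replicate number), with the group mean and SD (bars, n = 3). *Nr1d2*, *Tef* and *Per3* show SHP099 libraries above all others, and M-Shp2-/- replicate 3 (triangle) lies above both other M-Shp2-/- libraries for each gene but *Dbp*.

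Among the PAR bZIP genes, *Tef* was the abundant one. *Tef* (ENSMUSG00000022389, chr15:81802421-81826863, plus strand, GRCm38) was measured at 14.9, 16.5 and 13.0 FPKM in WT, 23.2, 19.7 and 25.6 in M-Shp2-/- and 37.5, 43.9 and 41.2 in SHP099 libraries. The groups formed steps that did not overlap, with WT lowest, M-Shp2-/- between and SHP099 highest. Means were 14.8 ± 1.79, 22.8 ± 2.95 and 40.9 ± 3.20 (FPKM, SD, n = 3 each). The SHP099 mean was 2.76 times the WT mean, a log2 fold change of 1.41 and place 19 of 11450. In M-Shp2-/- the mean was 1.54 times that of WT, a log2 fold change of 0.59 (95% interval 0.25 to 0.93). All 3 M-Shp2-/- libraries lay above all WT libraries, but the difference did not pass the test over all genes (adjusted p = 0.412 by limma). The estimate was 0.51 without M-Shp2-/- replicate 3 and 0.42 with median-of-ratios scaling. Its place in that comparison was 419 of 11450 from the highest. Within WT (63.8, 302.5 and 39.8) and within M-Shp2-/- (134.5, 51.4 and 585.7) the fibroblast sums had the same order as *Tef*. Within SHP099 (361.1, 136.9 and 101.0) they did not. The mesothelial sums likewise had the order of *Tef* within WT (2.50, 7.57 and 1.56) and within M-Shp2-/- (4.27, 1.42 and 8.97). Within SHP099 (5.81, 4.59 and 2.41) they did not. The part of fibroblasts and mesothelial cells in the level of *Tef* was not tested. Exons of *Tef* share 193 bases with the antisense gene *Gm17597*.

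*Dbp*, encoding the other PAR bZIP factor of the set, was close to absent, with 4 to 54 reads per library. Its FPKM was 0.282, 0.231 and 0.0693 in WT, 0.733, 0.143 and 0.711 in M-Shp2-/- and 0.671, 0.388 and 0.907 in SHP099 libraries. All SHP099 values exceeded all WT values, and the M-Shp2-/- values spanned both groups. It was below the filter, and its exons share 539 bases with *Sphk2* on the opposite strand. *Hlf*, the remaining PAR bZIP gene, did not exceed 0.105 FPKM.

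The *Per* genes differed from each other. *Per3*, a modulator of the clock, stood at 1.62, 1.73 and 1.50 FPKM in WT, 2.12, 2.15 and 2.21 in M-Shp2-/- and 3.11, 3.39 and 3.24 in SHP099 libraries. Its steps did not overlap and spread little within a group, with means of 1.62 ± 0.114, 2.16 ± 0.0466 and 3.25 ± 0.140 (FPKM, SD, n = 3 each). The ratio to the WT mean was 2.01 for SHP099 and 1.33 for M-Shp2-/-. The log2 fold change in M-Shp2-/- was 0.27 (SE 0.14, adjusted p = 0.490 by limma), 0.26 without replicate 3, and 0.076 with quantile normalization.

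*Per1*, a core repressor that also responds to acute signals, had an FPKM of 7.77, 6.38 and 6.52 in WT, 5.36, 4.11 and 8.65 in M-Shp2-/- and 7.62, 7.98 and 9.26 in SHP099 libraries. SHP099 and WT values overlapped, with a log2 fold change of 0.24. M-Shp2-/- replicates 1 and 2 were the lowest libraries of the 9, and replicate 3 was above the WT range. In M-Shp2-/- the log2 fold change was -0.21 (adjusted p = 0.674 by limma, range 0.238 to 0.993 over all alternatives to that fit). One of these, without replicate 3, gave -0.46 (adjusted p = 0.238 by limma). Another, without replicate 2, gave -0.0056 (adjusted p = 0.993 by limma).

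*Per2*, the other core *Per* repressor, was read from 54 to 303 reads. Its FPKM was 0.401, 1.29 and 0.667 in WT, 0.749, 0.505 and 2.19 in M-Shp2-/- and 1.53, 1.44 and 1.31 in SHP099 libraries. The SHP099 values lay just above the highest WT value, and M-Shp2-/- replicate 3 had the highest level of all. Its log2 fold change in M-Shp2-/- was 0.22 (adjusted p = 0.750 by limma) with replicate 3 and -0.11 without it.

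Of the cryptochromes, the partners of PER in repression, *Cry1* varied little. It was at 33.2, 36.8 and 38.8 FPKM in WT, 32.6, 33.2 and 44.4 in M-Shp2-/- and 38.1, 39.1 and 44.5 in SHP099 libraries. All groups overlapped. The log2 fold change was 0.16 in SHP099 and 0.0076 in M-Shp2-/- (SE 0.14, adjusted p = 0.982 by limma). In M-Shp2-/- it turned to -0.13 without replicate 3, -0.054 without WT replicate 1, -0.17 with median-of-ratios scaling and -0.076 with quantile normalization. The SHP099 estimate was 0.010 with median-of-ratios scaling and 0.080 with quantile normalization. It was 0.091 without SHP099 replicate 3 and 0.096 without WT replicate 1.

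*Cry2* was at 2.57, 3.49 and 3.20 FPKM in WT, 3.50, 3.04 and 4.20 in M-Shp2-/- and 4.87, 5.57 and 4.16 in SHP099 libraries. Each SHP099 library was above each WT library, with a ratio of means of 1.58. M-Shp2-/- overlapped both other groups, and its log2 fold change against WT was 0.16 (adjusted p = 0.643 by limma), 0.068 without replicate 3 and -0.052 with quantile normalization. A noncoding gene on the opposite strand, *D930015M05Rik*, shares 295 exon bases with *Cry2*.

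*Arntl* is the only gene of the positive limb in the set, and the target of REV-ERB repression. Its FPKM was 2.47, 3.40 and 3.47 in WT, 3.18, 2.84 and 5.27 in M-Shp2-/- and 3.78, 3.91 and 3.29 in SHP099 libraries. The SHP099 range was narrow and overlapped that of WT, and M-Shp2-/- replicate 3 was the highest library. The log2 fold change from WT was 0.19 in SHP099, with the median of all genes at 0.13. The SHP099 estimate was 0.069 without WT replicate 1, 0.067 with median-of-ratios scaling and 0.045 with quantile normalization. In M-Shp2-/- the log2 fold change was 0.19 (SE 0.23, adjusted p = 0.691 by limma). It turned to -0.029 without replicate 3 and to -0.018 with quantile normalization.

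Across the set, 9 of 9 tested genes had a higher mean log2 value in SHP099 than in WT, and the same 9 of 9 held with median-of-ratios scaling and with quantile normalization. Of all tested genes 71.2% were higher, 49.2% with median-of-ratios scaling and 56.0% with quantile normalization. The median of their log2 fold changes was 0.52, and that of all genes 0.13. In that comparison 2 of the 9 (*Nr1d2* and *Tef*) were called, beside 0.166% of all tested genes. These calls depended on the setting. *Nr1d2* was called with a pseudocount of 5, a filter at a mean FPKM of 5 or equal sums per library, and not under any other alternative, including median-of-ratios scaling, quantile normalization, voom and each fit that left out a library. *Tef* lost its call with no filter, without the trend, with the replicate block, with voom, without each library except WT replicate 3, and without WT replicate 2 and SHP099 replicate 1 together. The looser rule took 3, with *Per3*, beside 6.96% of all genes. *Per3* did not pass it with no filter, with quantile normalization, with the replicate block or without any library other than WT replicate 3 (nor without WT replicate 2 and SHP099 replicate 1 together), and *Nr1d1* passed it without WT replicate 2. For 5 of the 9, SHP099 libraries lay wholly above WT libraries, beside 27.9% of all genes. The comparison selected the set through *Nr1d2* and *Tef*, so their calls followed from that choice and are no test. Nothing is read from these counts, or from calls kept or lost under the alternatives.

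In M-Shp2-/- against WT, which was not used to select the genes but shares the WT libraries with the comparison that was, 8 of 9 genes had a higher mean and 1 a lower one, with 7 and 2 under median-of-ratios scaling and 4 and 5 under quantile normalization. Of all tested genes 77.4% were higher, 47.3% under median-of-ratios scaling and 56.2% under quantile normalization. The median log2 fold change was 0.19, close to the 0.15 of all genes. None of the 9 was called, beside 0.00873% of all tested genes, and 0 of 9 passed the looser rule by limma, beside 0.0873%. Only *Tef* (1 of 9) had an unadjusted p under 0.05, as did 1204 of all 11450 genes. With limma's voom on reads recovered from the FPKM, 0 of 9 passed the looser rule and 2 had an unadjusted p under 0.05, beside 9 and 1152 of all 11353 genes in that fit. For 2 of the 9 (*Tef* and *Per3*), M-Shp2-/- libraries lay wholly above WT libraries, beside 16.0% of all genes, and for 0 of 9 wholly below, beside 3.07%. Without replicate 3, 4 genes had a higher and 5 a lower mean and the median was -0.029, where that of all genes was 0.18. Without WT replicate 2 the counts were 8 and 1 and the median 0.30, with 0.17 for all genes. Without both of these libraries they were 7 and 2 and the median 0.14, with 0.21 for all genes. In the fit without M-Shp2-/- replicate 3 the estimates of *Nr1d2* (0.20), *Tef* (0.51) and *Per3* (0.26) were above the median of all genes, and the other 6 were below it.

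**Figure D2:**
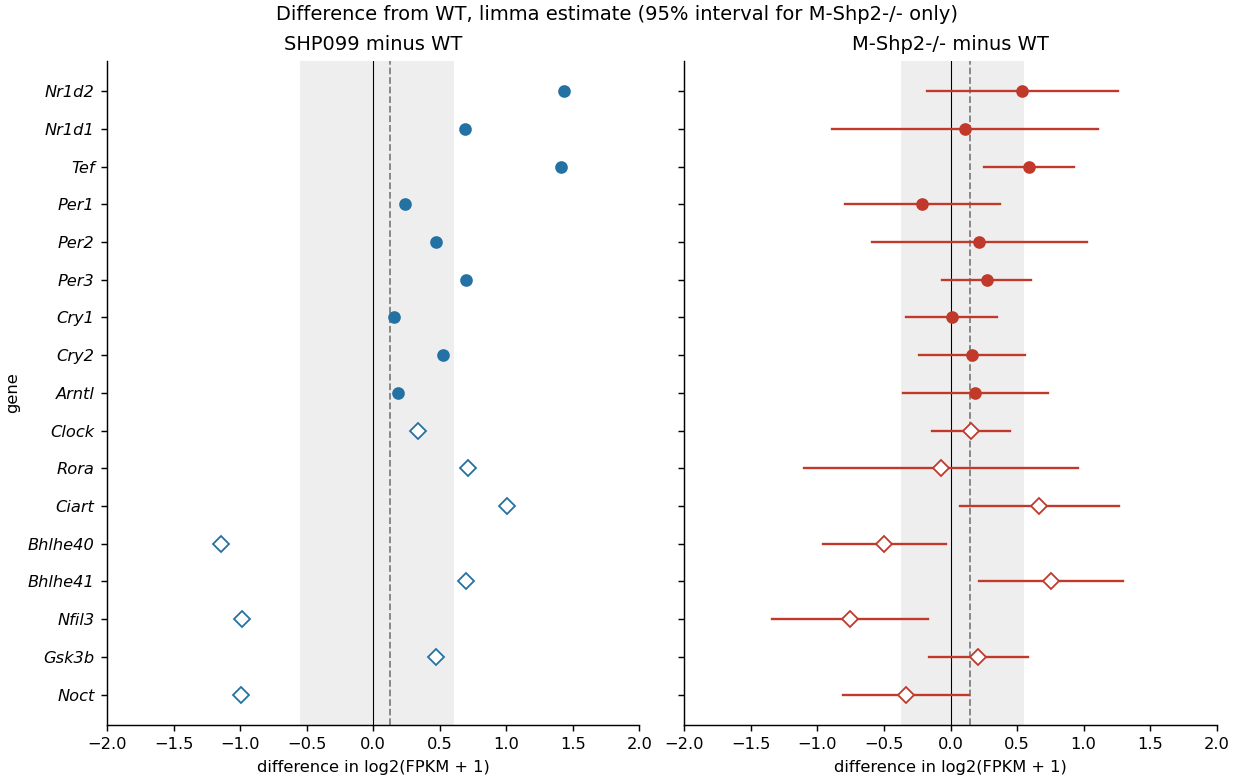
Difference from WT in log2(FPKM + 1) for the 9 tested genes of the set (filled circles) and 8 other clock genes (open diamonds), as limma estimates, with 95% intervals for M-Shp2-/- and none for SHP099, the comparison that selected the set. The grey band spans the middle 90% of all 11450 genes and the dashed line is their median (0.13 for SHP099, 0.15 for M-Shp2-/-); beyond the band lie *Nr1d2*, *Tef*, *Nr1d1*, *Per3*, *Rora*, *Ciart*, *Bhlhe41*, *Bhlhe40*, *Nfil3* and *Noct* for SHP099, and *Tef*, *Ciart*, *Bhlhe41*, *Bhlhe40* and *Nfil3* for M-Shp2-/-.

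M-Shp2-/- and SHP099 libraries were set side by side without a test, since the SHP099 libraries selected the genes. *Nr1d2* was 0.89 lower in M-Shp2-/- than in SHP099 on the log2 scale (log2 fold change -0.89), *Tef* -0.82 and *Per3* -0.43. For these genes every M-Shp2-/- library, replicate 3 included, was below every SHP099 library. *Arntl* had a log2 fold change of 8.3e-05 in this comparison.

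Promoter windows were taken from RefSeq (GRCm38.p6), from 250 bases before to 50 bases after the start of transcription. They were found for 9 of the 10 genes, 12 windows in all, and not for *Per2*. Windows were searched on both strands for the E-box CACGTG, the E-prime box CACGTT, the D-boxes TTATGTAA and TTACGTAA, the ROR element cores TAGGTCA and TGGGTCA, and the cAMP response element TGACGTCA. The E-box was in both windows of *Tef* and in a window each of *Per1* and *Cry1*, against 7.15% of 32851 windows of all genes. The E-prime box was in those of *Nr1d1*, *Cry1* and *Cry2* (4.69% of all windows), and the cAMP response element in none (1.79%). The D-box, the element that TEF and DBP bind, was found in the window of *Per3* alone, as a pair of copies (1.06% of all windows). The ROR element core, bound by REV-ERB and ROR proteins, was found in a window of *Arntl* (6.45%). None of these letter runs was in the windows of *Nr1d2* and *Dbp*. A match is a description of the sequence and not a site shown to be bound here.

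Sequences of 4 windows are shown 5′ to 3′ on the strand of the gene, with matches in capitals: *Tef* for its level in SHP099, *Per3* for its D-boxes and its likeness to *Tef*, *Cry1* as an E-box gene that varied little, and *Arntl* for the ROR element. The first *Tef* window is chr15:81802423-81802722 (plus strand), with the E-box from -127 to -122 relative to the start. The *Per3* window is chr4:151044616-151044915 (minus strand), with D-boxes from -205 to -198 and from -158 to -151. The *Cry1* window is chr10:85185005-85185304 (minus strand), with the E-prime box, read here as its reverse complement AACGTG, from -79 to -74 and the E-box from -60 to -55. The second *Arntl* window is chr7:113207261-113207560 (plus strand), with the ROR element core from 30 to 36 after the start.
Tef: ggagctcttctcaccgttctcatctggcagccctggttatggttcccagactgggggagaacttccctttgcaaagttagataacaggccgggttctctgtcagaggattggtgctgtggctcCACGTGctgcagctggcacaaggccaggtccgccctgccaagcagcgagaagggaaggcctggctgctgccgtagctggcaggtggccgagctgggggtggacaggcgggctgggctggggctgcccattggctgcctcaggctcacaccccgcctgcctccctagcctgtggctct
Per3: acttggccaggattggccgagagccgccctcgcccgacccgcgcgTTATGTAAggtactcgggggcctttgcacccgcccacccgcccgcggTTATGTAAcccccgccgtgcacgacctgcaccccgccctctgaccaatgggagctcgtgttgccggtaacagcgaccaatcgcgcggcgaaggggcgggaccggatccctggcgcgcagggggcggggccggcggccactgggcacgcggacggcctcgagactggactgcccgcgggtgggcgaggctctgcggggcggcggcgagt
Cry1: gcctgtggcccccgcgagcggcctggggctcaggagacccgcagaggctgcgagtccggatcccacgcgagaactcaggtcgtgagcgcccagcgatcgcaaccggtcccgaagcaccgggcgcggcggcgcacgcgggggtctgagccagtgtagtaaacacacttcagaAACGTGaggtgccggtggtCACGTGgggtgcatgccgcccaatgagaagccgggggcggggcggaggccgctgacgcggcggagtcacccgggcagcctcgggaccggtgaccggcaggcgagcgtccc
Arntl: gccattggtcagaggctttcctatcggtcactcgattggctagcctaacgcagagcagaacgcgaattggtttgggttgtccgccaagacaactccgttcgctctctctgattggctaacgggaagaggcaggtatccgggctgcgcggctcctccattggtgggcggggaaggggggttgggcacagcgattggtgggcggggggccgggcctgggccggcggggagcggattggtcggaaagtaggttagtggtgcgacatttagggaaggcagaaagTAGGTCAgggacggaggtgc

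The pattern of *Tef* over the 9 libraries was most like that of *Per3*. Of the 11449 other tested genes, *Per3* had the highest Pearson correlation of log2 values with *Tef* (r = 0.990 over 9 libraries), followed by *Clec4e* (0.986), *Dleu2* (0.983), *Gm48226* (0.983) and *Fam76b* (0.981). For *Nr1d2* the closest genes were *Trnp1* (0.994), *Ptpra* (0.991), *5031425E22Rik* (0.991), *Cnp* (0.989) and *Ulk1* (0.987). *Trnp1*, with a mean of 0.796 FPKM in WT, 2.34 in M-Shp2-/- and 5.18 in SHP099, passed the filter through its higher values outside WT. Mean FPKM of *Ulk1*, a kinase that starts autophagy, was 15.5 in WT, 19.6 in M-Shp2-/- and 28.7 in SHP099, with 27.2 in M-Shp2-/- replicate 3. *Tef* and *Nr1d2* were less like each other, with r = 0.922. *Tef* held place 258 among the genes most like *Nr1d2*, and *Nr1d2* held place 135 among those most like *Tef*. They parted mainly in M-Shp2-/- replicate 3, where *Nr1d2* but not *Tef* came near the SHP099 level. These correlations describe 3 groups of libraries that share IMQ treatment and differ in level, and they carry no test.

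**Figure D3:**
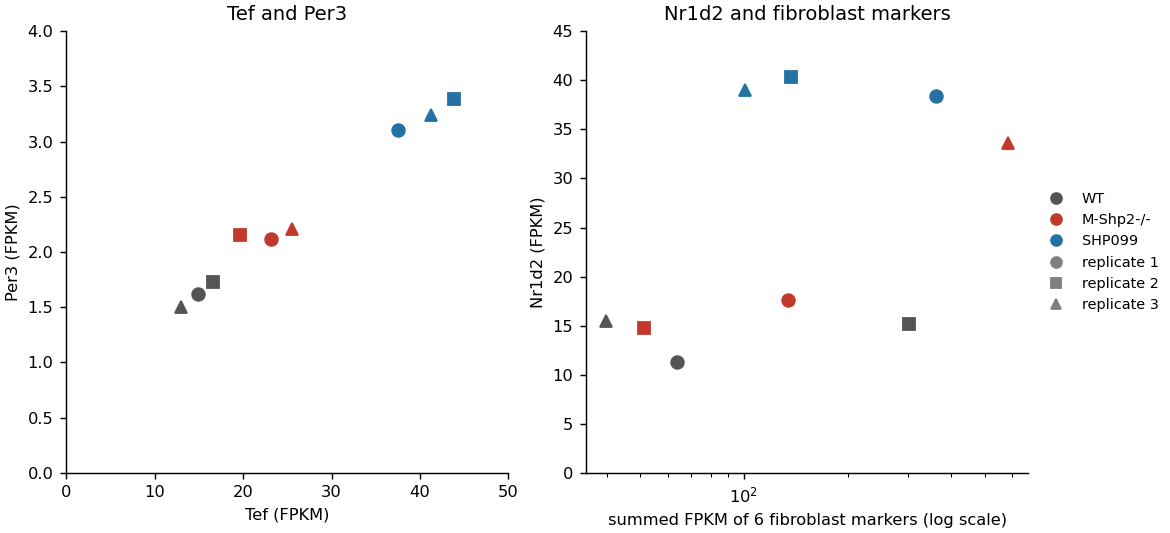
Left, FPKM of *Tef* and *Per3* in each library, which fall in the order WT, M-Shp2-/-, SHP099 for both genes. Right, FPKM of *Nr1d2* against the summed FPKM of 6 fibroblast markers on a log axis, where M-Shp2-/- replicate 3 has the highest sum (585.7) and SHP099 libraries have sums of 101.0 to 361.1 with 38.4 to 40.4 FPKM of *Nr1d2*.

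A further 24 clock genes were examined, 18 of which passed the filter. In SHP099 against WT, 14 had a higher and 4 a lower mean (12 and 6 with median-of-ratios scaling), beside 71.2% of all genes higher (49.2%), with a median log2 fold change of 0.21. The looser rule took 4 higher (among them *Ciart*, *Bhlhe41* and *Gsk3b*) and 3 lower (*Bhlhe40*, *Nfil3* and *Noct*), beside 4.55% of all tested genes higher and 2.41% lower. SHP099 libraries lay wholly above WT for 11 of the 18 and wholly below for 3, beside 27.9% and 6.77% of all genes. This is again the comparison that selected the set. Without WT replicate 2 and SHP099 replicate 1, the libraries of these groups with the highest fibroblast sums, 0 of the 18 passed the looser rule by limma, 10 had an unadjusted p under 0.05, and 50 of all tested genes passed it in place of 797. That fit was chosen after the data had been seen. With no library left out, 14 of the 18 and 3061 of all 11450 genes had an unadjusted p under 0.05 by limma. The number of all genes under 0.05 without these libraries is not given here, so nothing is read from the 10. Of the 6 genes just named, *Bhlhe40* alone passed without any 1 of the SHP099 libraries, *Bhlhe40* and *Nfil3* without WT replicate 1, these and *Ciart* without WT replicate 2, and all 6 without WT replicate 3. With no filter none of the 6 passed. *Gsk3b* did not pass with median-of-ratios scaling, *Bhlhe41* and *Gsk3b* did not without the trend or with all 9 libraries in a single fit, and *Ciart*, *Gsk3b* and *Noct* did not with the replicate block.

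In M-Shp2-/- against WT, 11 of the 18 had a higher and 7 a lower mean, which turned to 7 and 11 with median-of-ratios scaling, beside 77.4% of all genes higher (47.3%). By limma 0 passed the looser rule and 4 had an unadjusted p under 0.05, beside 1204 of all 11450 genes, and voom gave the same counts for the 18. The median log2 fold change was 0.11. M-Shp2-/- libraries lay wholly above WT for 2 (*Bhlhe41* and *Ncor1*) and wholly below for 2 (*Bhlhe40* and *Nfil3*), beside 16.0% and 3.07% of all genes. Without replicate 3 the counts were 11 higher and 7 lower.

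Among repressors outside the set, *Bhlhe40* and *Bhlhe41* encode the related factors DEC1 and DEC2, which compete at E-boxes. *Bhlhe40* was at 177, 191 and 180 FPKM in WT, 143, 159 and 94.1 in M-Shp2-/- and 89.0, 68.9 and 89.6 in SHP099 libraries. *Bhlhe41* was at 75.8, 71.4 and 53.3 FPKM in WT, 135, 129 and 81.3 in M-Shp2-/- and 123, 98.2 and 104 in SHP099 libraries. WT libraries had the highest *Bhlhe40* and the lowest *Bhlhe41* of all. In M-Shp2-/- the log2 fold change was -0.50 for *Bhlhe40* (adjusted p = 0.465 by limma) and 0.76 for *Bhlhe41* (adjusted p = 0.454 by limma). Without replicate 3 the estimates were -0.27 and 0.99. In SHP099 the log2 fold changes were -1.15 and 0.70.

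*Ciart*, a repressor of the CLOCK dimer, was at 0.524, 1.35 and 0.870 FPKM in WT, 2.15, 1.31 and 2.67 in M-Shp2-/- and 3.08, 3.10 and 2.24 in SHP099 libraries, from 22 to 128 reads. With a WT mean of 0.914 FPKM it passed the filter through its higher values in the other groups. SHP099 libraries were above all WT libraries, and 2 of 3 M-Shp2-/- libraries were. Its log2 fold change was 1.01 in SHP099 and 0.67 in M-Shp2-/- (adjusted p = 0.465 by limma).

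*Nfil3*, the repressing competitor of the PAR bZIP factors, was at 10.4, 14.8 and 11.8 FPKM in WT, 6.23, 5.05 and 9.94 in M-Shp2-/- and 6.20, 5.27 and 5.56 in SHP099 libraries. Every WT library was above every other library. The log2 fold change was -0.99 in SHP099 and -0.75 in M-Shp2-/- (SE 0.25, adjusted p = 0.455 by limma, range 0.207 to 0.890 over all alternatives to that fit). One of these, without replicate 3, gave -0.997 (adjusted p = 0.207 by limma). *Noct*, a rhythmic output gene that is also induced by stimuli, was at 4.69, 6.55 and 5.71 FPKM in WT, 4.06, 3.36 and 5.51 in M-Shp2-/- and 3.09, 2.26 and 1.74 in SHP099 libraries. SHP099 libraries were the lowest, and M-Shp2-/- overlapped WT.

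In the positive limb, *Clock* was at 16.7, 17.8 and 14.7 FPKM in WT, 17.6, 17.1 and 20.4 in M-Shp2-/- and 20.7, 21.9 and 20.1 in SHP099 libraries. *Rora*, an activator at ROR elements, was at 11.8, 16.8 and 21.1 FPKM in WT, 10.5, 10.7 and 31.4 in M-Shp2-/- and 26.2, 26.1 and 28.8 in SHP099 libraries. SHP099 values of both genes were above all WT values, and M-Shp2-/- replicate 3 had the highest *Rora* of the 9. For *Rora* the M-Shp2-/- log2 fold change was -0.070 (adjusted p = 0.940 by limma) and -0.56 without that library. It turned to 0.18 without M-Shp2-/- replicate 1, 0.17 without M-Shp2-/- replicate 2 and 0.11 without WT replicate 3. *Gsk3b*, a kinase of several clock proteins, had a log2 fold change of 0.47 in SHP099 and 0.21 in M-Shp2-/- (adjusted p = 0.563 by limma). The M-Shp2-/- estimate was 0.045 without replicate 3 and 0.033 with median-of-ratios scaling.

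**Figure D4:**
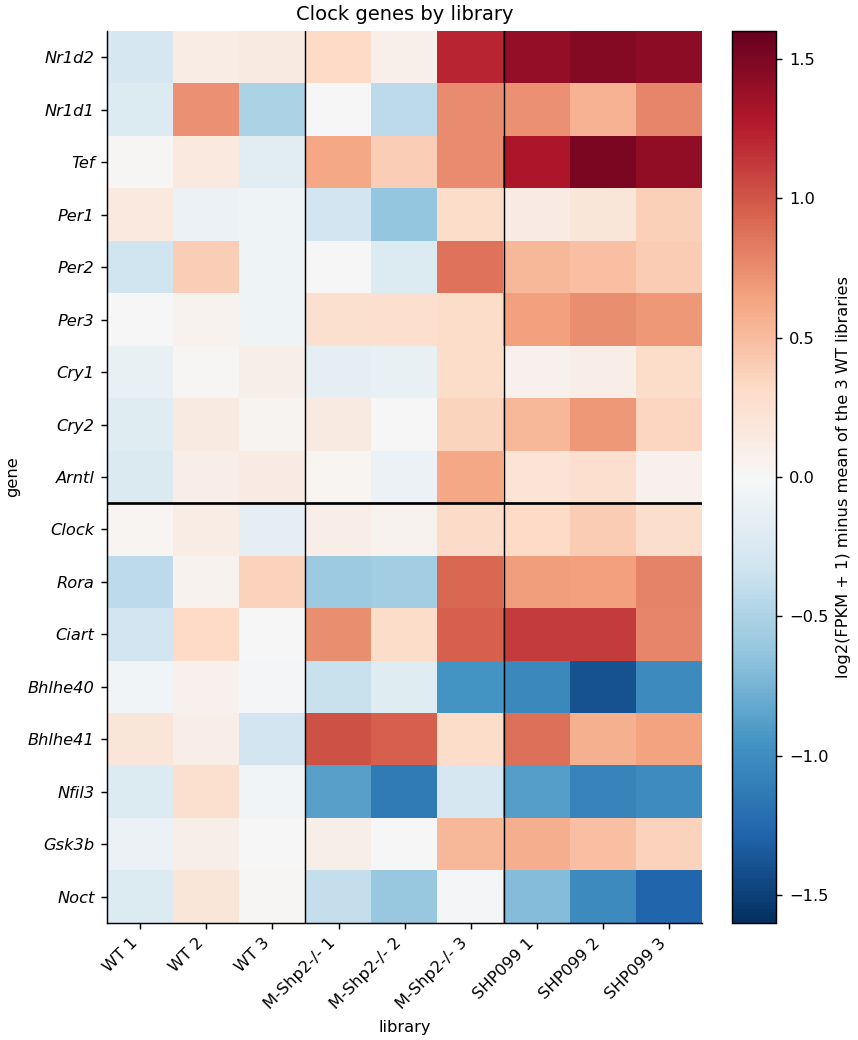
log2(FPKM + 1) of the 9 tested genes of the set and 8 other clock genes in each library, minus the mean of the 3 WT libraries (colour scale from -1.6 to 1.6). The set stands above the black line; *Nr1d2*, *Tef*, *Per3* and *Ciart* are red in every SHP099 library, *Bhlhe40*, *Nfil3* and *Noct* are blue there, and M-Shp2-/- replicate 3 is unlike replicates 1 and 2 for *Nr1d2*, *Rora* and *Bhlhe40*.

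Ratios within a library do not depend on the scaling between libraries. They were chosen after the values had been seen and are given with no test, and their absolute size depends on annotated transcript lengths. The ratio of *Tef* to *Nfil3* FPKM was 1.44, 1.12 and 1.10 in WT, 3.73, 3.90 and 2.57 in M-Shp2-/- and 6.05, 8.33 and 7.41 in SHP099 libraries. The ratio of *Bhlhe41* to *Bhlhe40* was 0.427, 0.374 and 0.296 in WT, 0.943, 0.810 and 0.864 in M-Shp2-/- and 1.38, 1.43 and 1.16 in SHP099 libraries. Both ratios placed the groups in the same order without overlap. For the ratio of *Nr1d2* to *Arntl*, the WT libraries were nearly equal at 4.58, 4.47 and 4.48, M-Shp2-/- libraries were at 5.56, 5.19 and 6.38 and SHP099 libraries at 10.2, 10.3 and 11.9. M-Shp2-/- replicate 3, in which both genes were high, lay closer to its own group by this ratio than by *Nr1d2* alone.

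**Figure D5:**
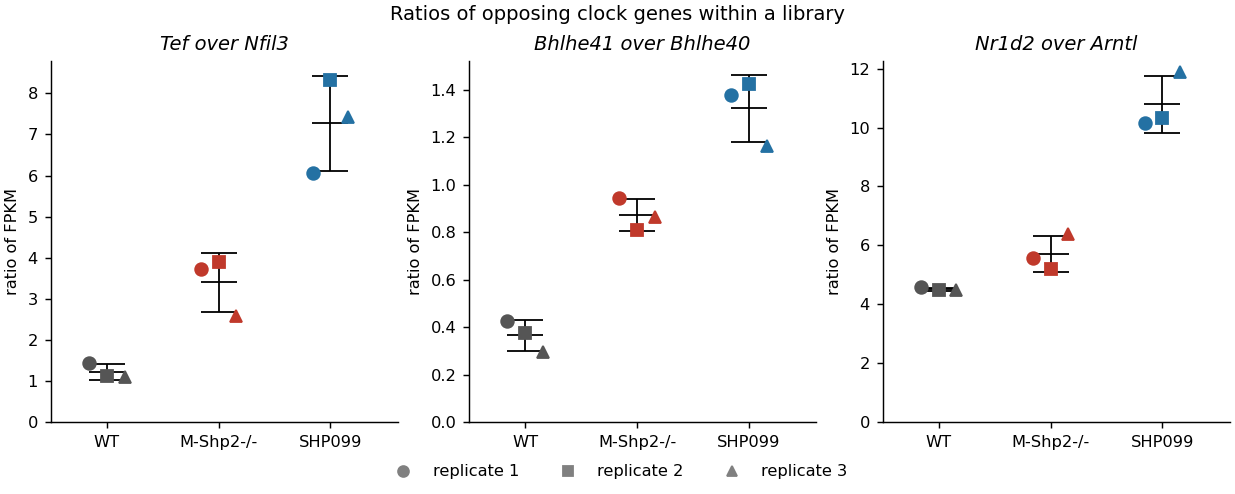
Ratio of FPKM within each library for *Tef* to *Nfil3*, *Bhlhe41* to *Bhlhe40* and *Nr1d2* to *Arntl* (points, shaped by replicate number), with group mean and SD (n = 3). WT libraries are lowest, M-Shp2-/- libraries between (2.57 to 3.90 for *Tef* to *Nfil3*) and SHP099 libraries highest (6.05 to 8.33).

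Since some clock genes respond directly to acute signals and glucocorticoid, 9 genes known for such induction were examined beside them, and all 9 passed the filter. In SHP099 against WT, 5 had a higher and 4 a lower mean (4 and 5 with median-of-ratios scaling), beside 71.2% of all genes higher (49.2%), with a median log2 fold change of 0.025, and 2 passed the looser rule, both lower, beside 2.41% of all genes. These were the immediate early genes *Fos* and *Egr1*. Without WT replicate 2 the counts by that rule were 0 lower and 1 higher, beside 399 of all genes in either direction. In that fit 5 had an unadjusted p under 0.05 by limma. With median-of-ratios scaling or voom 1 was lower, beside 511 and 779 of all genes in either direction. Without WT replicate 2 and SHP099 replicate 1 limma gave 0, beside 50 of all genes, with 3 at an unadjusted p under 0.05. With no library left out, 3 of the 9 and 3061 of all 11450 genes were under 0.05 by limma. The number of all genes under 0.05 is not given here for fits that left out a library. *Fos* was at 9.29, 9.13 and 2.73 FPKM in WT, 6.19, 4.98 and 5.60 in M-Shp2-/- and 1.19, 1.17 and 1.32 in SHP099 libraries. In M-Shp2-/- against WT, 4 had a higher and 5 a lower mean, beside 77.4% of all genes higher, with a median of -0.062, and 6 and 3 without WT replicate 2. By limma 0 passed the looser rule and 3 had an unadjusted p under 0.05, beside 1204 of all 11450 genes, and voom gave the same counts for the 9. Without M-Shp2-/- replicate 3 the means were 4 higher and 5 lower, with a median of -0.15 and 4 at an unadjusted p under 0.05. The median turned to 0.21 without WT replicate 2. M-Shp2-/- libraries lay wholly above WT for 3 of the 9 (*Tsc22d3*, *Fkbp5* and *Sik1*), beside 16.0% of all genes. *Tsc22d3* and *Fkbp5*, which are among the glucocorticoid targets of the list, were at 4.70 to 6.58 and 3.86 to 5.58 FPKM in WT libraries. In M-Shp2-/- they were at 6.90 to 8.12 and 5.86 to 6.79 FPKM, above every WT library, and in SHP099 at 5.62 to 7.60 and 5.09 to 7.85 FPKM, which overlap WT. For *Sgk1* and *Dusp1* of the same list M-Shp2-/- overlapped WT. Their log2 fold changes there were 0.095 and -0.65 (adjusted p = 0.802 and 0.465 by limma). *Klf9*, a glucocorticoid target that is also rhythmic, was at 4.74, 12.6 and 6.75 FPKM in WT, 4.66, 4.02 and 17.8 in M-Shp2-/- and 12.3, 13.2 and 11.2 in SHP099 libraries. It was high in the same WT and M-Shp2-/- libraries as *Nr1d1*.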

How the data were processed

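The authors aligned reads with HISAT2 2.0.4, counted them with HTSeq 0.9.1 (CASAVA 1.8 is also named in the submitters' processing notes) and deposited FPKM for each library. Genome build, annotation and strand setting are not given in the sources used here. Gene symbols, positions and exon overlaps came from GENCODE M21, which holds 53706 of the 54059 genes. FPKM multiplied by mean transcript length gave whole reads (within 0.05) for 96.2% to 96.7% of values up to 50 reads, which gave the depths. Values were tested as log2(FPKM + 1) with limma 3.58.1 (eBayes with trend, R 4.3.3) on the 6 libraries compared, two-sided, with Benjamini-Hochberg adjustment over 11450 genes. An exact permutation test of 3 against 3 cannot give a p below 0.1 and was not used. The genes named are the set, other clock genes, acute response genes, *Ptpn11*, the 5 genes most like *Nr1d2* or *Tef*, overlapping genes, and markers of macrophages and other cells. Members and lists were chosen with earlier results of these data known. The procedure was also run on simulated data, and no outcome of those runs is reported or used here. Alternatives were other pseudocounts, filters, scalings and fits, a replicate block and leaving out libraries. Python 3.11.15, pandas 2.3.3 and matplotlib 3.10.9 were used for tables and plots. Some genes of the lists are not reported here.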

Additional observations from a re-analysis of the deposited data

How the results depend on the processing

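No clock gene of the set passed the looser rule in M-Shp2-/- against WT by limma or voom, under any of the 18 alternatives run (0 in each). *Nr1d2* and *Tef* kept a positive log2 fold change in all of them, 0.20 to 0.77 and 0.42 to 0.69. In SHP099 against WT, *Nr1d2* ranged from 1.23 to 1.51 and *Tef* from 1.21 to 1.55.

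Some M-Shp2-/- estimates changed sign, and the cause was not tested. With quantile normalization *Nr1d1* was -0.055, *Cry1* -0.076, *Cry2* -0.052 and *Arntl* -0.018. With median-of-ratios scaling *Cry1* was -0.17 and *Clock* -0.012. Over fits that left out a library, *Nr1d1* ranged from -0.21 to 0.47, *Per2* from -0.11 to 0.43, *Cry1* from -0.13 to 0.084, *Arntl* from -0.029 to 0.32 and *Rora* from -0.56 to 0.18. Without WT replicate 2 and M-Shp2-/- replicate 3, an alternative chosen after seeing the data, *Cry1* was -0.12.

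Counts over all genes depended on the setting. Genes called in M-Shp2-/- against WT (1) were 0 with no filter, 0 without the trend, 3 with median-of-ratios scaling, 2 with all 9 libraries in a single fit, 0 to 0 with a library left out, and 0 without WT replicate 2 and M-Shp2-/- replicate 3. Genes called in SHP099 against WT (19) were 0 with no filter, 4 without the trend, 9 with voom, 0 to 26 with a library left out, and 1 without WT replicate 2 and SHP099 replicate 1, likewise chosen after seeing the data. By the looser rule M-Shp2-/- had 10 genes, 6 without the trend, 1 to 8 with a library left out, and 2 without WT replicate 2 and M-Shp2-/- replicate 3. SHP099 had 797, 74 with no filter, 511 with median-of-ratios scaling, 47 to 1273 with a library left out (47 without SHP099 replicate 2, 1273 without WT replicate 3), and 50 without WT replicate 2 and SHP099 replicate 1. A filter at a mean FPKM of 5 gave no value for *Nr1d1*, *Per2*, *Per3*, *Cry2*, *Arntl*, *Ciart* and *Noct*.

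With the replicate number as a replicate block, 0 genes were called in M-Shp2-/- and 0 in SHP099, and 2 passed the looser rule in M-Shp2-/- and 591 in SHP099. Deviations of same-numbered libraries correlated at 0.49, -0.43 and 0.19 for M-Shp2-/- and WT and at -0.04, -0.09 and 0.45 for SHP099 and WT, so the numbers were not treated as pairs. Not every library correlated best with its own number.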
